A study of Mus musculus with 4 samples.

Results

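Genes of the PAX-, SIX-, LHX-, NKX-, IRX- and DLX-families encode homeobox and paired-box transcription factors that set up organs in the embryo. Members were all protein-coding genes of the mouse genome build mm10 whose symbol joins one of the prefixes Pax-, Six-, Lhx-, Nkx-, Irx- and Dlx- directly to a digit. This gave 49 of 21883 protein-coding genes, namely 9 PAX-family, 6 SIX-family, 8 LHX-family, 14 NKX-family, 6 IRX-family and 6 DLX-family genes. Their accessible chromatin was taken as every deposited ATAC-seq peak that overlapped the gene span plus 20 kb on either side. ATAC-seq uses a transposase that adds adapters wherever DNA is exposed, so that a pile of fragments marks an accessible site.

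Both groups were 2TS22C mouse embryonic stem cells with endogenous Sox2 silenced and with DOX treatment, grown in 2i serum/LIF medium. In the first group a lentivirus supplied SOX17FNV, an engineered form of the endoderm factor SOX17, and in the second group it supplied SOX2, a factor of pluripotent cells. Each group had 2 libraries of 900000 starting cells each. The titles call them biological replicates, but the labels do not say whether they came from separate lines, so the p-values measure the spread between these libraries. All cells come from the line 2TS22C, and no library without a rescue factor was analysed here. Because only lists of called peaks were analysed, sequencing depth in reads is unknown. The SOX17FNV lists held 120341 and 92851 peaks, and the SOX2 lists 123214 and 96500 peaks. Replicate 1 of either group therefore had the longer list. All 8 embryonic stem cell markers examined, Pou5f1 and Nanog among them, had a peak within 1 kb of a gene end in all 4 libraries. The same held for 7 of 7 neural progenitor, 5 of 7 endoderm, 5 of 8 feeder fibroblast and 6 of 8 housekeeping genes, so a peak at a gene end did not set the cell type apart.

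PAX proteins bind DNA through a paired domain, and the other families through a homeodomain. SIX-family proteins work with EYA and DACH cofactors, LHX proteins carry LIM domains that bind LDB cofactors, NKX proteins can recruit Groucho corepressors, and IRX proteins belong to the TALE class of homeodomain proteins. In embryonic stem cells, many developmental regulators of this kind are known to sit in CpG-rich promoters that carry Polycomb marks and are little transcribed. The comparison asks whether chromatin near these genes differs between cells kept by the engineered SOX17 and cells kept by SOX2.

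Overlapping peaks of the 4 lists (1 bp or more) were joined, which gave 170898 regions, and 371 of them lay in the windows of the 49 genes. The SOX17FNV libraries had called 264 and 216 of these regions, and the SOX2 libraries 294 and 234. The group means were 240.0 ± 33.9 and 264.0 ± 42.4 regions (SD, n = 2 each), a smaller difference than that between the libraries of a group. Of the windows, peaks covered 155.904 and 115.139 kb in SOX17FNV cells and 178.532 and 123.036 kb in SOX2 cells. This was 0.238% and 0.256% of all base pairs covered by the SOX17FNV lists, against 0.261% and 0.262% for the SOX2 lists. Each SOX17FNV share lay below each SOX2 share, by a small margin. With 2 libraries against 2, an exact permutation test cannot give a p below 0.333. Every one of the 49 genes had at least 1 region called in all 4 libraries, as did 18024 of all 21883 protein-coding genes. Of the 371 regions, 333 lay nearer to a member than to any other protein-coding gene, and 38 lay nearer to another gene. Neighbouring members shared 27 regions, those at Dlx1 and Dlx2, Dlx3 and Dlx4, Dlx5 and Dlx6, and Six2 and Six3 among them.

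At CpG-rich start sites, a smaller share of member starts than of other genes' starts carried a peak in all 4 libraries. RefSeq start windows, from 250 bases before to 50 bases after a start, were at hand for 43 starts of 35 members. A start counted as open in a library when a peak of that library overlapped this window. The SOX17FNV libraries had 28 and 24 open starts, and the SOX2 libraries 27 and 26. In all 4 libraries, 20 of the 43 starts were open (46.5%, exact binomial 95% interval 31.2% to 62.3%), where the background over all 21262 starts was 55.3%. CpG-rich starts were taken as those with an observed over expected CpG ratio above 0.6. Of 31 such member starts 15 were open in all 4 libraries (48.4%, interval 30.2% to 66.9%), against 88.3% (87.7% to 88.9%) of 10097 starts of other genes. The background over all CpG-rich starts was 88.2%. The intervals cover counting error only, starts of a single gene are not independent, and no test of the difference was run.

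This gap depended in size on how an open start was defined. Where a start counted as open once the merged region over it was called in all 4 libraries, 26 of 43 member starts were open (60.5%), against 58.5% for other genes. On that definition the members were not below the other genes over all starts, but among CpG-rich starts they were still below, with 19 of 31 (61.3%) against 91.5%. The starts were also set side by side by CpG content. Among CpG-poor starts, 5 of 12 member starts were open in all 4 libraries (41.7%), a higher share than the 25.3% of other genes. The median CpG ratio of these CpG-poor starts was 0.512 for the members and 0.238 for other genes. With a ratio from 0.4 to 0.6, 5 of 9 member starts were open (55.6%), against 64.0% for other genes. Members with a ratio from 0.6 to 0.8 were open in 11 of 18 cases (61.1%), against 86.5% for other genes. Above 0.8, 4 of 13 member starts were open (30.8%), against 89.6% for other genes.

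**Figure D1:**
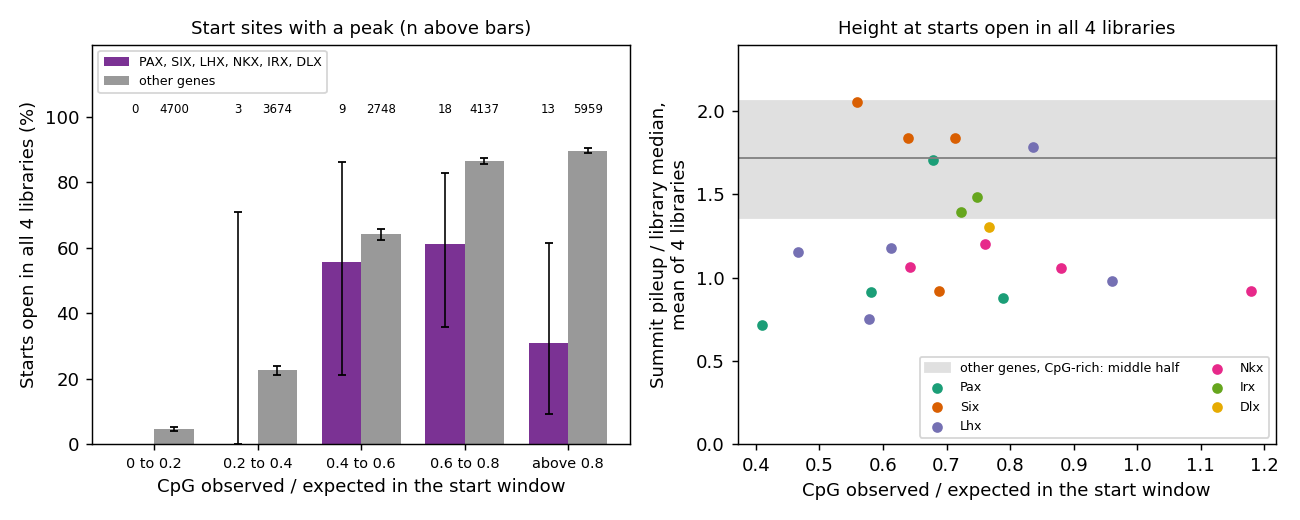
Left, share of start windows (%) with a peak in all 4 libraries by the CpG observed over expected ratio of the window, for the 6 families (purple) and other genes (grey), with exact binomial 95% intervals and the number of starts above the bars. In the bin above 0.8 the families stand at 30.8% and other genes at 89.6%. Right, normalised summit height, averaged over the 4 libraries, at member starts open in all 4 libraries against CpG ratio, coloured by family, with the median (line) and interquartile range (band) of CpG-rich starts of other genes. Most member points lie below the line at 1.72.

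The heights of the peaks at open starts were compared as well. Summit height is given as the pileup of fragments at the highest summit divided by the library's median over autosomal regions called in all 4 libraries, so that 1 is a typical shared region. The median height at the 15 open CpG-rich member starts was 1.20, against 1.72 for the open CpG-rich starts of other genes. Of these 15, 12 lay below the other genes' median. By library, the median at these member starts came to 1.24 and 1.21 with SOX17FNV and to 1.14 and 1.36 with SOX2. The Hox genes, the other large group of homeobox regulators, had 6 of 12 CpG-rich starts open and a median height of 0.865 at those. The log2 difference in height between SOX17FNV and SOX2 cells at the open CpG-rich member starts had a median of 0.01. Single starts differed in either direction. Both SOX17FNV libraries lay above both SOX2 libraries at such starts of Lhx2, Lhx4 and Six4. They lay below both at those of Nkx1-1, Nkx1-2, Nkx3-2 and Pax2, and the groups overlapped at the others. Both Six4 starts lay in the same region. Over all shared regions, the SOX17FNV libraries lay above both SOX2 libraries at 24.1% and below both at 18.4%, so such starts do not set the members apart. None of the differences at these member starts passed an adjusted p of 0.05 by limma.

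The sequences of 6 start windows are given as examples of open and closed starts. The letters are the 250 bases before each start from RefSeq, build GRCm38.p6, 5′ to 3′ on the gene's strand, with each CpG in capitals. Six5 is shown because its start had the highest peak of any member start. With a CpG ratio of 0.559, its start was CpG-poor by the limit of 0.6. Nkx6-1 is shown because it was the most CpG-rich of the open starts. The later and the earlier start of Lhx2 are shown because one gene held an open and a closed start of nearly equal CpG number. Nkx2-4 and Pax5 are CpG-rich starts that no library called.
Six5: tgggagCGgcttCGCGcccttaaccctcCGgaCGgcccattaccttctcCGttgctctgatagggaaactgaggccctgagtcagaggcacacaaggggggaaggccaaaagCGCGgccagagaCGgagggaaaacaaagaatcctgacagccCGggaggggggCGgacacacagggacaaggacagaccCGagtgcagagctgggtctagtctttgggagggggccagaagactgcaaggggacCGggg
Nkx6-1: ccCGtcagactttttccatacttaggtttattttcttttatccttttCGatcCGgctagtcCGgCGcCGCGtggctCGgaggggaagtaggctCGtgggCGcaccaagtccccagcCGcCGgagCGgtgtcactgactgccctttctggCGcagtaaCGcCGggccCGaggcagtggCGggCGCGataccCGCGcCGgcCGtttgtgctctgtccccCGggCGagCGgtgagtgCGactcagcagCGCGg
Lhx2 later start: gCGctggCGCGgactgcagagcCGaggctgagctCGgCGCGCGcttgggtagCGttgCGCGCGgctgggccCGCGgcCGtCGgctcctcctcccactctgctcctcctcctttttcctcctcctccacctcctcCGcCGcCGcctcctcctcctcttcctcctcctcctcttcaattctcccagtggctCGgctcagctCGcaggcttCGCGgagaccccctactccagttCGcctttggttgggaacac
Lhx2 earlier start: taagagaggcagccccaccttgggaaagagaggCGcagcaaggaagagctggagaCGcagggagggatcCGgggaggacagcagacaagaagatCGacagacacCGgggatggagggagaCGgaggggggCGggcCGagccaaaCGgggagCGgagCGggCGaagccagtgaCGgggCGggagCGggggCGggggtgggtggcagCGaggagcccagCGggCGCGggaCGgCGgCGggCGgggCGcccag
Nkx2-4: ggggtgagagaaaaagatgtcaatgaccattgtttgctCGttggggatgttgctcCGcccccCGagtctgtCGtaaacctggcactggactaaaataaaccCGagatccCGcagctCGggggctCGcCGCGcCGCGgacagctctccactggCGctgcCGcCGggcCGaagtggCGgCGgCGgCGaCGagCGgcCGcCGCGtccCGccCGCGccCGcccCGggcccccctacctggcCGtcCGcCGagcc
Pax5: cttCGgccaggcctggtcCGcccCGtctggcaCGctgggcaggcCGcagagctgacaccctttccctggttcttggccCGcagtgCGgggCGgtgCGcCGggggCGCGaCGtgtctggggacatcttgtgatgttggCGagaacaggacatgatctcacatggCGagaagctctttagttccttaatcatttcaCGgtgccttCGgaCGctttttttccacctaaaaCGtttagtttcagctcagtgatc

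The Six5 sequence lies at chr7:19094294-19094543 on the plus strand and holds 13 CpGs. Its start region had summit pileups of 58 and 56 in SOX17FNV cells and of 70 and 60 in SOX2 cells, or normalised heights of 1.76 and 2.33 against 2.00 and 2.14. The groups overlapped there. The Nkx6-1 sequence lies at chr5:101664712-101664961 on the minus strand and holds 30 CpGs. With more CpGs than the Six5 sequence, it carried pileups of 41 and 18 in SOX17FNV cells and of 27 and 26 in SOX2 cells. The SOX2 libraries lay between the SOX17FNV libraries. The later start of Lhx2, at chr2:38351058-38351307 on the plus strand with 24 CpGs, had pileups of 61 and 54 in SOX17FNV cells and of 58 and 39 in SOX2 cells. The earlier start of Lhx2, at chr2:38339031-38339280 on the same strand with 25 CpGs, was called in no library, and the nearest shared region lay 8673 bp away. The Nkx2-4 sequence, at chr2:147085346-147085595 on the minus strand with 33 CpGs, also had no peak, although a region called in all 4 libraries lay 302 bp from the start. The Pax5 sequence, at chr4:44710695-44710944 on the minus strand with 19 CpGs, had no peak over it either, and a SOX2-only region began just upstream of it. These 6 windows were chosen by their peaks and CpG content together, so they cannot show how CpG number relates to open and closed starts.

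In all, 11 starts of 11 members were open in no library, and 12 were open in some libraries. The 11 starts without a peak belonged to Lhx2, Lhx3, Nkx2-1, Nkx2-2, Nkx2-4, Nkx2-5, Pax1, Pax5, Pax6, Pax8 and Six3, and 8 of them were CpG-rich. The nearest region called in all 4 libraries lay 302 to 8673 bp away with a median of 2434 bp, and 3 of the 11 had such a region within 1 kb. All 11 genes had shared accessible regions within their windows. Each start window was searched on both strands for ACAATG and ACAAAG, short forms of the SOX site, and for the octamer site of POU factors. ACAATG was in 3 of the 43 member windows (6.98%) and in 11% of the windows of other genes. ACAAAG was in 6 member windows (14.0%) and in 16.8% of the others. The octamer ATGCAAAT was in 0 member windows and in 1.66% of the others. Among CpG-rich starts alone, ACAATG was in 9.68% of member windows and in 5.61% of the others, the reverse direction. ACAAAG was in 9.68% and 10.9% of these, and the octamer in 0 member windows and in 1.23% of the others. A match says only that the letters are present in the window.

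Within 1 kb of either end of the gene span, 37 of the 49 members had a peak in all 4 libraries, where the background over all protein-coding genes was 63.5%. The SOX17FNV libraries had such a peak at 39 and 42 members, and the SOX2 libraries at 46 and 41. Pax4, a factor of pancreatic beta cells, and Lhx4, a factor of pituitary and motor neurons, had none in any library. At Lhx4, the annotated RefSeq start lay inside the gene span and was open in all 4 libraries, with pileups of 42 and 32 in SOX17FNV cells and of 35 and 31 in SOX2 cells. At Pax5, both SOX2 libraries and neither SOX17FNV library had a peak near a gene end. The same was true of Dlx4. The reverse pattern was not found at any of the 49 members. The SOX2-only regions at these ends were weak, with pileups of 15 and 18 at Pax5 and of 18 and 23 at Dlx4. The lowest summits of the SOX2 lists had 12 and 13. The share of all protein-coding genes with either pattern is not given here, so these genes show no lean of the members.

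Of the 371 regions, 151 were called in all 4 libraries (40.7%, against a background of 33.8% over all regions). SOX17FNV-only regions, with a call in each SOX17FNV library and none in the SOX2 libraries, numbered 8, or 2.16% against a background of 3.06%. SOX2-only regions, with the reverse pattern, numbered 19, or 5.12% against a background of 4.09%. The remaining 193 regions had other patterns of calls. Among those, regions called in SOX2 replicate 1 alone numbered 40 (10.8%, against a background of 12.6% over all regions). Regions called in SOX17FNV replicate 1 alone numbered 25 (6.74%, against a background of 11.5%). Both counts were above those of the group-specific regions, near the members as over all regions. By family, SOX17FNV-only and SOX2-only regions numbered 0 and 8 near Pax genes, 1 and 0 near SIX-family genes, 3 and 3 near Lhx genes, 2 and 4 near Nkx genes, 1 and 3 near Irx genes and 1 and 1 near Dlx genes. For all members together the shares lie near the background. By family, SOX2-only regions made up 7.77% of 103 regions near Pax genes and 8.57% of 35 near Irx genes, above the background of 4.09%, while the SOX17FNV-only share was 0% near Pax genes against 3.06%. No family was tested. At a stricter threshold, a -log10 q of at least 5, 0 of the 8 SOX17FNV-only regions and 3 of the 19 SOX2-only regions stayed in their class. With all lists cut to the same length, 3 of the 8 and 12 of the 19 did. Without 1 library of the 4 in turn, the counts ran from 15 to 33 SOX17FNV-only regions and from 27 to 59 SOX2-only regions, since a group of 1 library then needs only 1 call.

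**Figure D2:**
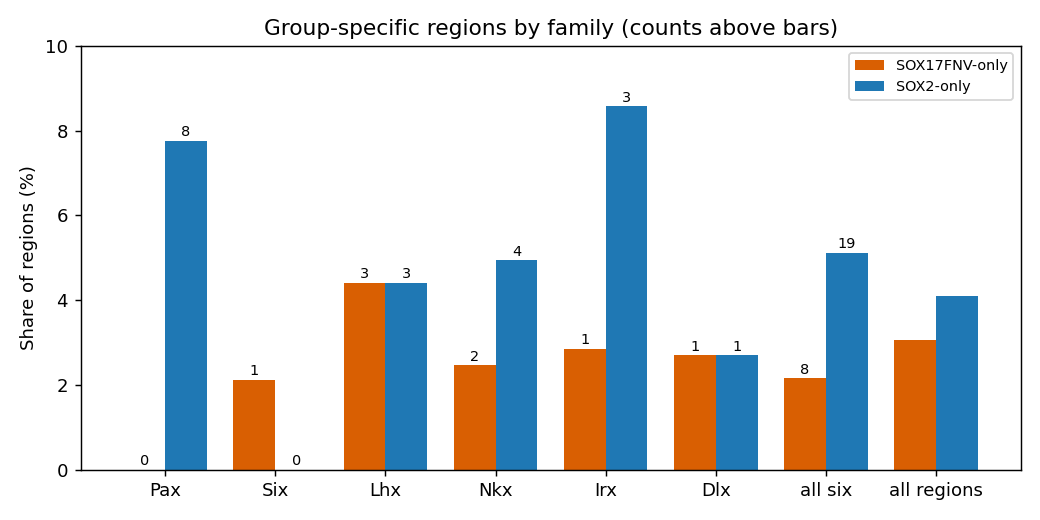
Share of regions (%) near each family that was SOX17FNV-only (orange) or SOX2-only (blue), with the number of regions above the bars. The last pair of bars gives the share over all 170898 regions, 3.06% and 4.09%. Pax regions hold 0 SOX17FNV-only and 8 SOX2-only calls.

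The 8 SOX17FNV-only regions lay at Six3 (forebrain and eye), Lhx1 (head formation), Lhx8 (cholinergic neurons and oocytes, 2 regions), Nkx2-3 (spleen and gut), Nkx2-9 (ventral neural tube), Irx6 and Dlx3 (skin, teeth and placenta). The region at Dlx3, at chr11:95115243-95115773 and 4344 bp outside the gene, had pileups of 28 and 16 in the SOX17FNV libraries, or a mean normalised height of 0.758. The first region near Lhx8 was about as high, with a mean of 0.761. The 2 near Lhx8, at chr3:154333803-154334593 and chr3:154339401-154339956, had pileups of 20 and 22 and of 11 and 12. At the end of Lhx8 itself, the shared region at chr3:154329390-154330529 had pileups of 28 and 20 in SOX17FNV cells against 36 and 33 in SOX2 cells. The side regions were called only in SOX17FNV cells, while the gene end was lower in both SOX17FNV libraries. The gene end missed the test (log2 difference -0.39, SE 0.23, adjusted p = 0.492 by limma). With no SOX2 value at the side regions, no difference was measured there. Near Lhx1, the region at chr11:84504463-84504694 lay inside the neighbouring gene Aatf. The Six3 region at chr17:85630941-85631508 had pileups of 14 and 11, the Nkx2-3 region at chr19:43599952-43600304 of 11 and 14, the Nkx2-9 region at chr12:56614479-56614878 of 14 and 13 and the Irx6 region at chr8:92678532-92678959 of 16 and 19. The lowest summits in the SOX17FNV lists had pileups of 11 and 10, so the first 3 of these 4 regions lay near the limit of calling. The same was true of the second region near Lhx8. An uncalled region has no value in a list, so a missing call is not a height of 0.

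The 19 SOX2-only regions included the group-specific region with the highest mean normalised height near the families, at Lhx6. LHX6 directs interneurons that migrate into the cortex. The region at chr2:36089181-36089632, inside the gene, had pileups of 49 and 35 in the SOX2 libraries, above the median shared region, and no call in SOX17FNV cells. The other one, at chr2:36090130-36090625, had pileups of 26 and 32. Next to them, the shared region at chr2:36090945-36091760 had pileups of 41 and 37 in SOX17FNV cells against 55 and 58 in SOX2 cells. The region over the gene end and a start, at chr2:36104648-36105843, had 20 and 15 against 30 and 26. Of the 8 regions at Lhx6, 2 were SOX2-only (background 4.09% over all regions), 3 were shared and 3 had other patterns of calls. At 2 of the shared regions both SOX17FNV libraries lay below both SOX2 libraries (background 18.4% of shared regions). The groups overlapped at the remaining shared one, at chr2:36102120-36102994. For the 2 lower ones the log2 differences were -0.38 (SE 0.19, adjusted p = 0.365) and -0.54 (SE 0.26, adjusted p = 0.362), by limma with Benjamini-Hochberg adjustment. Neither passed the test. With fold enrichment in place of pileup, the difference at chr2:36104648-36105843 was -0.29.

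PAX genes held 0 SOX17FNV-only and 8 SOX2-only regions of 103, where the background was 3.06% and 4.09%. PAX5 commits cells to the B lineage, and its gene, the longest of the family and the member with the most covered base pairs in it, held 3. They were at chr4:44624143-44624660 with pileups of 17 and 15, at chr4:44701866-44702159 with 23 and 22, and at chr4:44711082-44711411, 388 bp beyond the gene end, with 15 and 18. These lie among stronger shared regions, the highest being at chr4:44703134-44704891 with pileups of 58 and 51 in SOX17FNV cells and of 58 and 47 in SOX2 cells. Pax8, a gene of thyroid and kidney, held 2 inside its span, at chr2:24442764-24443584 and chr2:24467197-24467557, with pileups of 25 and 13 and of 24 and 16. Pax3, a gene of neural crest and muscle progenitors, held the region at chr1:78167355-78168241 with pileups of 23 and 14, and Pax6, the eye regulator, that at chr2:105660717-105661268 with 13 and 17. Near Pax9, a gene of teeth and thymus, the region at chr12:56718028-56718594 had pileups of 26 and 23 but lay inside the neighbouring gene Slc25a21. The lowest summits of the SOX2 lists had pileups of 12 and 13, so several of these calls lay near the limit of calling.

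The other SOX2-only regions lay near 5 further Nkx and Lhx genes, 3 Irx genes and the Dlx3 and Dlx4 pair. Lhx2, a regulator of eye and forebrain, had the region at chr2:38326269-38327214, 12057 bp before the gene, with pileups of 25 and 21. The Nkx regions were at Nkx1-1 (chr5:33442926-33443199, pileups of 24 and 24), Nkx1-2 (chr7:132616195-132616943, 22 and 21, inside the neighbour Lhpp), Nkx2-2 (chr2:147187233-147187582, 27 and 23, inside the gene) and Nkx3-2 (chr5:41768554-41768860, 22 and 25). NKX1-2 marks caudal progenitors, NKX2-2 acts in the ventral neural tube and pancreas, and NKX3-2 in the axial skeleton. The Irx regions all lay between 2322 and 2911 bp outside their gene. They were at Irx2 (chr13:72636518-72636783, 26 and 21), Irx3 (chr8:91804255-91804611, 28 and 37) and Irx5 (chr8:92364367-92364867, 26 and 23). The last was at the end of Dlx4, at chr11:95145206-95145512, with pileups of 18 and 23. Under the stricter threshold the 3 regions that stayed SOX2-only were the stronger one at Lhx6, the one at Lhx2 and the one near Pax9.

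Height was then compared at the 151 regions called in all 4 libraries. With limma over all 57783 such regions of the genome, 0 of the 151 passed an adjusted p of 0.05, where the background was 2.12%, or 0.893% higher and 1.23% lower in SOX17FNV cells. At an unadjusted p under 0.05 there were 11 member regions, against a background of 13.5%. Of these, 6 were higher in SOX17FNV cells (background 7.46%) and 5 lower (background 6.07%). The median log2 difference, SOX17FNV minus SOX2, was -0.04 near the members and 0.04 over all regions. With fold enrichment in place of pileup, these medians were -0.021 and -0.0093, so the members then lay close to all regions. By pileup, 62 of the 151 had a positive and 89 a negative difference. Both SOX17FNV libraries lay above both SOX2 libraries at 18 regions (background 24.1%) and below both at 37 (background 18.4%). Of all 57783 regions, 55.2% had a positive and 44.8% a negative difference. The median SE was 0.238 on the log2 scale. With the replicate number as a block, 2 of the 151 passed, near Pax2 and Six5, where the background was 6.36%. The median difference was -0.14 without SOX17FNV replicate 2 and -0.14 without SOX2 replicate 1, where the medians over all regions were -0.05 and -0.06.

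By family, the median log2 difference was -0.13 for PAX, 0.06 for SIX-family regions, 0.06 for LHX, -0.13 for NKX, 0.04 for IRX and -0.06 for DLX. Near Pax genes, 28 of 39 shared regions had a negative difference (71.8%, background 44.8%). Both SOX17FNV libraries lay below both SOX2 libraries at 14 of them (35.9%, background 18.4%) and above at 2 (5.13%, background 24.1%). Near Nkx genes, 27 of 39 had a negative difference (69.2%), with 13 below (33.3%) and 2 above (5.13%). SIX-family genes had 13 of 24 positive (54.2%), about the background share of 55.2%, with 8 above (33.3%) and 2 below (8.33%). The families were not tested against each other. The height of a region moved with its difference over the genome. With all shared regions cut into 4 equal parts by height, from low to high, the median log2 differences were -0.03, 0.02, 0.05 and 0.09. For the members in the same parts they were -0.07, -0.05, -0.10 and 0.11, over 35, 52, 43 and 21 regions. The members' median lay below that of all regions in 3 of the 4 parts and above it in the highest.

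**Figure D3:**
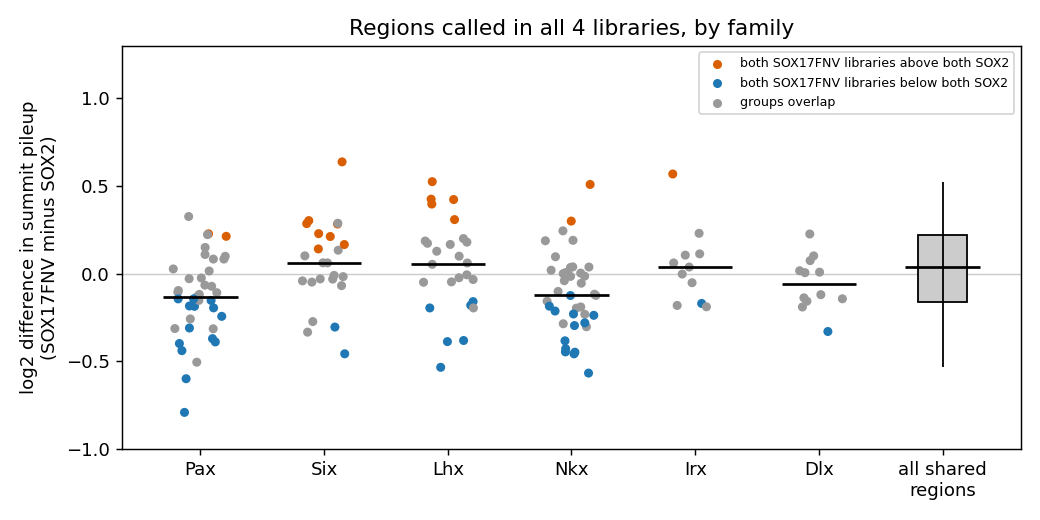
Each point is a region called in all 4 libraries near a member, placed by the log2 difference in summit height, SOX17FNV minus SOX2. Orange points have both SOX17FNV libraries above both SOX2 libraries, blue points the reverse, and grey points overlap. Black bars are family medians, and the box on the right gives the quartiles and the 5th to 95th percentiles over all 57783 shared regions. Pax and Nkx points lie mostly below 0, with medians of -0.13.

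The 10 largest differences at shared regions lay at members of 5 of the 6 families, and none passed the test. PAX2 acts in kidney and in the midbrain and hindbrain border. The region at chr19:44741338-44742512, 4089 bp before Pax2, had pileups of 20 and 16 in SOX17FNV cells and of 29 and 41 in SOX2 cells. In normalised height this was 0.636 ± 0.0429 against 1.15 ± 0.450 (SD, n = 2 each), with no overlap and with SOX2 replicate 2 far above the rest. The log2 difference was -0.79 (SE 0.27, adjusted p = 0.118), and leaving out a SOX2 library gave -1.26 (replicate 1 out) or -0.44 (replicate 2 out). At chr19:44834996-44836873, the strongest region of Pax2 had pileups of 25 and 20 against 37 and 28, and the groups did not overlap there either. Pax3 had the region at chr1:78189339-78190206 with pileups of 26 and 16 in SOX17FNV cells and 37 and 32 in SOX2 cells, or heights of 0.727 ± 0.0857 and 1.10 ± 0.0606 (SD, n = 2 each). This gave a log2 difference of -0.60 (SE 0.24, adjusted p = 0.224).

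In the Six5 window, the largest positive difference lay 8108 bp from Six5 and inside the neighbour Dmpk, a kinase gene. The region at chr7:19085801-19086436 had pileups of 42 and 30 in SOX17FNV cells and of 23 and 28 in SOX2 cells. Heights were 1.26 ± 0.0161 and 0.829 ± 0.242 (SD, n = 2 each), with no overlap, for a log2 difference of 0.64 (SE 0.23, adjusted p = 0.165), which was 0.28 without SOX2 replicate 1. The Six5 start, printed above, differed by only -0.03. Over the 4 shared regions of the Six5 window, the mean log2 difference was 0.22 (SE 0.11, adjusted p = 0.386 by limma). Irx4, a gene of the heart ventricle, had a region at chr13:73251039-73252376, 7213 bp before the gene, with pileups of 47 and 34 in SOX17FNV cells and of 31 and 29 in SOX2 cells. Heights of 1.42 ± 0.00536 and 0.961 ± 0.106 (SD, n = 2 each) did not overlap, and the log2 difference was 0.57 (SE 0.21, adjusted p = 0.160). At Lhx2, the region over the gene end at chr2:38368722-38369236 had 36 and 29 in SOX17FNV cells against 26 and 24 in SOX2 cells, a log2 difference of 0.52 (SE 0.23, adjusted p = 0.288). The later Lhx2 start, printed above, had heights of 1.85 and 2.25 in SOX17FNV cells and 1.66 and 1.39 in SOX2 cells, and a log2 difference of 0.42 (SE 0.18, adjusted p = 0.254). Thus 2 of the 5 shared regions of Lhx2 were higher in both SOX17FNV libraries, while its group-specific region was called in SOX2 cells.

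Among NKX genes, the heart gene Nkx2-5 had a region over its gene end at chr17:26844599-26844988 with pileups of 13 and 13 in SOX17FNV cells and 23 and 20 in SOX2 cells. The log2 difference was -0.57 (SE 0.29, adjusted p = 0.385), at pileups near the lower limit of the lists. Nkx2-1, a gene of thyroid, lung and forebrain, had a region at chr12:56520766-56521735, 10200 bp from the gene, with 21 and 13 against 29 and 22, and a log2 difference of -0.46 (SE 0.27, adjusted p = 0.486). In the Pax8 window, the region at chr2:24409309-24409697 lay inside the neighbour Psd4. It had pileups of 24 and 13 in SOX17FNV cells against 41 and 19 in SOX2 cells, which overlap in normalised height, and a log2 difference of -0.51 (SE 0.28, adjusted p = 0.447). The difference was -0.32 without SOX17FNV replicate 2, and leaving out a SOX2 library gave -0.17 (replicate 1 out) or -0.95 (replicate 2 out).

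The mean height over the shared regions of a gene was tested over 18024 genes. By limma 0 of the 49 members passed an adjusted p of 0.05, against a background of 1.25%, and the smallest adjusted p was 0.157. With the replicate number as a block, 3 members passed, Nkx6-2, Lhx6 and Nkx1-2, where the background was 13.0%. At an unadjusted p under 0.05 there were 5 members, against a background of 15.2%. Nkx6-2, a factor of neurons and oligodendrocytes, had a log2 difference of -0.36 (SE 0.11, adjusted p = 0.157). Its gene end region at chr7:139581738-139582894 had pileups of 35 and 22 in SOX17FNV cells and of 48 and 36 in SOX2 cells, and the groups did not overlap. Lhx6 had a gene value of -0.32 (SE 0.11, adjusted p = 0.214), Nkx1-2 of -0.27 (SE 0.11, adjusted p = 0.257), Nkx1-1 of -0.26 (SE 0.10, adjusted p = 0.248) and Lhx2 of 0.27 (SE 0.12, adjusted p = 0.314). With fold enrichment in place of pileup, the value was -0.0018 for Nkx6-2, -0.03 for Lhx6 and 0.06, of opposite sign, for Nkx1-2, so these 3 differences were largely lost. It was -0.24 for Nkx1-1 and 0.21 for Lhx2. Single libraries also moved these values. Lhx6 came to -0.09 and Nkx1-1 to -0.16 without SOX2 replicate 2, and Nkx1-2 to -0.41 without SOX2 replicate 1. Lhx2 came to 0.06 without SOX17FNV replicate 2, and leaving out a SOX2 library gave 0.17 (replicate 1 out) or 0.18 (replicate 2 out). Over the 49 genes the differences ran from -0.36 to 0.27 with a median of -0.05, and 30 were negative. Over all genes the median was 0.05.

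The height of a member's highest shared region, averaged over the 4 libraries, ranged from 0.710 to 2.31 among the 49 genes. The highest shared region of any member lay 3627 bp from Nkx6-3, a gene of the stomach, at chr8:23162575-23163612. Its normalised heights were 2.15 and 2.17 in SOX17FNV cells and 2.49 and 2.43 in SOX2 cells, the groups did not overlap, and the log2 difference was -0.19 (SE 0.17, adjusted p = 0.695). After it came the Six5 start and the region near Irx5 at chr8:92355842-92356924, with heights of 1.88 and 2.38 in SOX17FNV cells and of 1.80 and 2.14 in SOX2 cells. Six4, which acts in muscle and kidney, followed at chr12:73085579-73086690 with 1.91 and 2.21 against 1.97 and 1.96. The heights of these 3 regions overlap over the libraries, so their order is not beyond the spread. At the low end, the highest shared region of Dlx4 had heights of 0.576 and 0.792 in SOX17FNV cells and of 0.686 and 0.786 in SOX2 cells.

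**Figure D4:**
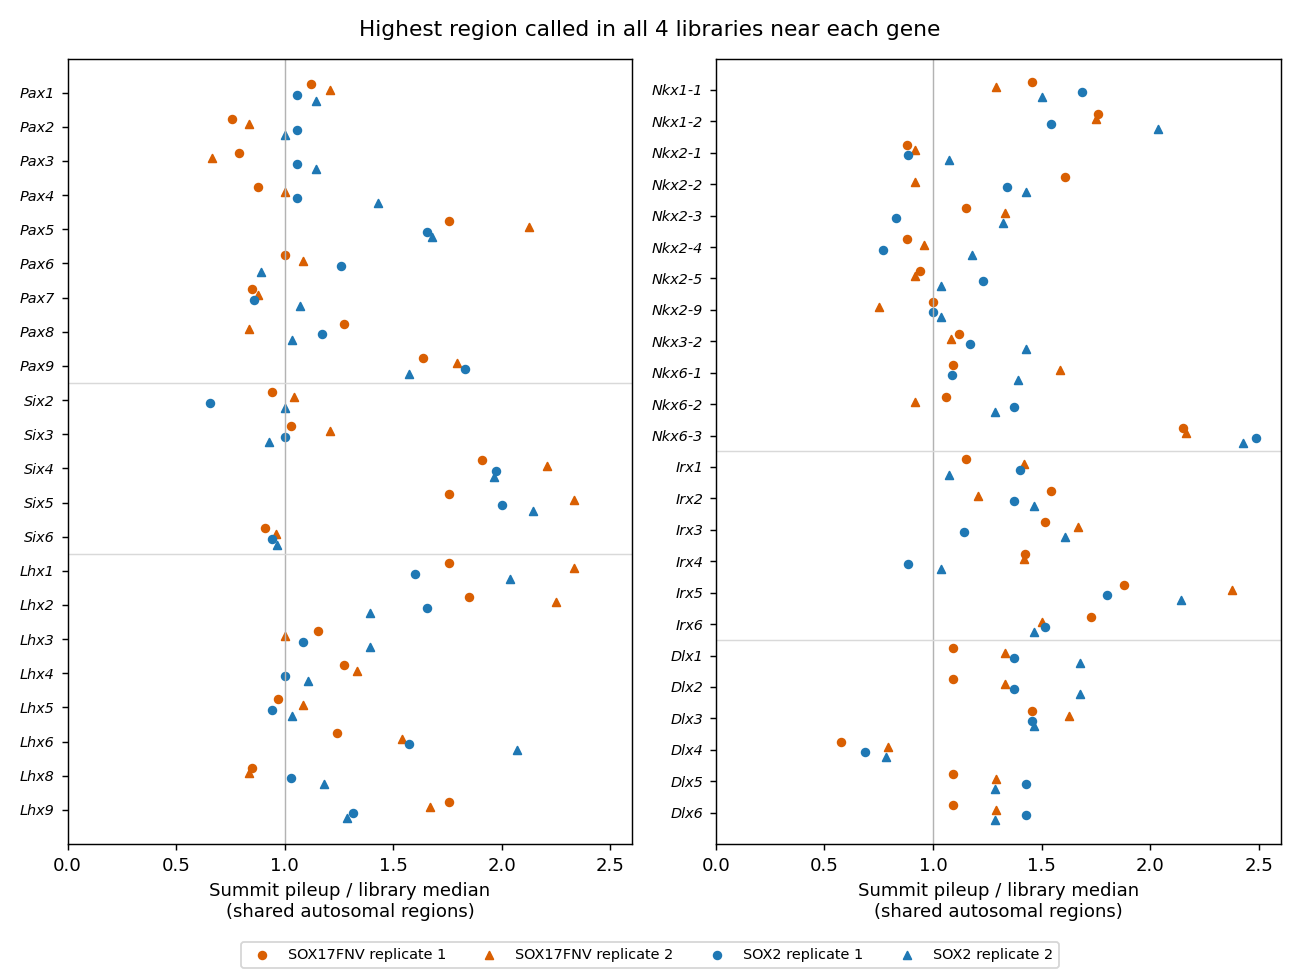
Normalised summit height of the highest region called in all 4 libraries near each of 46 of the 49 genes, with SOX17FNV libraries in orange and SOX2 libraries in blue, circles for replicate 1 and triangles for replicate 2. The line at 1 is the median shared region of a library. Nkx6-3 lies furthest right, at 2.15 to 2.49, and Dlx4 furthest left, at 0.576 to 0.792.

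Covered length per gene varied within each family, and the window grows with the gene. Among PAX genes, Pax5 had the most covered base pairs, 7008 ± 1643 bp in SOX17FNV cells and 7627 ± 2823 bp in SOX2 cells (SD, n = 2 each, as for all values that follow). Pax1, a gene of the vertebral column, had the fewest, 1771 ± 218 bp in SOX17FNV cells and 1792 ± 296 bp in SOX2 cells. Among SIX-family genes, the eye gene Six6 had the fewest with 1924 ± 986 bp in SOX17FNV cells and 2457 ± 643 bp in SOX2 cells. The ranges of the groups overlapped at all 3 of these genes. Among LHX genes, Lhx2 had the most with 4185 ± 928 bp in SOX17FNV cells and 5108 ± 2427 bp in SOX2 cells, and the pituitary gene Lhx3 the fewest with 2144 ± 384 bp in SOX17FNV cells and 1944 ± 660 bp in SOX2 cells. Among NKX genes, Nkx2-2 had the most with 4438 ± 207 bp in SOX17FNV cells and 4246 ± 209 bp in SOX2 cells, and Nkx2-4 the fewest with 1403 ± 515 bp in SOX17FNV cells and 1279 ± 102 bp in SOX2 cells. Again the groups overlapped at each gene. Among IRX genes, Irx2 had the most with 3173 ± 609 bp in SOX17FNV cells and 3980 ± 967 bp in SOX2 cells, and Irx6 the fewest with 1231 ± 74.2 bp in SOX17FNV cells and 991 ± 244 bp in SOX2 cells. Among DLX genes, Dlx2, a gene of forebrain interneurons, had the most with 4252 ± 476 bp in SOX17FNV cells and 4082 ± 946 bp in SOX2 cells, and Dlx4 the fewest with 1381 ± 697 bp in SOX17FNV cells and 1751 ± 1640 bp in SOX2 cells. Of these 11 genes, Irx6 had groups that did not overlap, with 1283 and 1178 bp in the SOX17FNV libraries against 818 and 1163 bp in the SOX2 libraries. The share of all genes without overlap is not given here, so this does not set Irx6 apart. These lengths were not scaled to the total length of each list.

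The other genes of these pathways are set against the background of 3.06% SOX17FNV-only and 4.09% SOX2-only regions, with no test. The cofactor genes of SIX-family proteins, Eya1 to Eya4, Dach1 and Dach2, had 4 SOX17FNV-only (4.55%) and 3 SOX2-only regions (3.41%) among 88, and 0 shared regions past the test. Eya3 had the strongest of these in SOX17FNV cells, at chr4:132737269-132737574 with pileups of 38 and 44, and Eya1 in SOX2 cells, at chr1:14225323-14226276 with 47 and 36. The LIM-homeodomain relatives and LIM cofactors had 2 and 2 of 94 regions (2.13% each), all 4 at Ldb1, the gene of the LIM-domain binding cofactor. The Groucho genes had 3 and 2 of 57 regions (5.26% and 3.51%), at Tle6 and Tle4 on the SOX17FNV side and at Tle1 and Tle5 on the SOX2 side. The TALE relatives of IRX had 10 and 10 of 191 regions (5.24% each), above both backgrounds, and the only region of these 5 lists that passed the test. It lay at Pknox2, at chr9:37089891-37090974, with pileups of 44 and 22 in SOX17FNV cells and of 77 and 49 in SOX2 cells, and was lower in SOX17FNV cells by limma (log2 difference -0.83, SE 0.20, adjusted p = 0.0154). Of the 10 SOX17FNV-only regions of the TALE list, 3 were at Pbx4. The Hox genes had 2 and 5 of 132 regions (1.52% and 3.79%), with 0 past the test and a median log2 difference of -0.14 over 65 shared regions.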

How the data were processed

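Peaks were called for each library by the authors, who deposited 1 list per library. The submitters' processing notes name Bowtie2, SAMtools, MACS2 and mm10, without versions or settings. Whether reads were shifted for the transposase is not given in these sources. The deposited lists hold the fold enrichment of each summit, the −log10 of its p-value and q-value, and a score. These values, and the peak calls, are the authors'. The summit pileup was solved from the deposited fold and −log10 p as MACS2 defines them, and came out whole for 100% of summits at a tolerance of 0.001. Depth is therefore known only as pileup. The medians over autosomal regions called in all 4 libraries, 33 and 24 in the SOX17FNV and 35 and 28 in the SOX2 libraries, were used to scale it.

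Scaled pileups were compared on the log2 scale with limma 3.58.1 (lmFit, eBayes with trend) in R 4.3.3, fitted over all 57783 shared regions or 18024 genes, with Benjamini-Hochberg adjustment. Everything else was computed in Python 3.11.15 and checked on simulated data. Gene spans and start windows came from RefSeq for GRCm38.p6, whose coordinates are those of mm10, counted from 1. Intervals of shares are exact binomial (Clopper-Pearson). Named are the members with a group-specific region, those of the 10 largest differences and, in each family, the members with the most and fewest covered base pairs. The rule for the partner lists names genes with a group-specific region or a call. Some genes that these rules name are not reported here, though they stay in the counts. The members and lists were chosen with earlier results of these data known. The start-site comparison, its CpG limit of 0.6, the 6 printed promoters, the motifs, the Nkx6-3, Irx5, Six4 and Lhx4 regions and the genes at an unadjusted p under 0.05 were chosen after values had been seen. The definition of an open start was changed after its first result, and both are given. Alternatives covered thresholds, list length, overlap, windows, scaling, low values, the replicate number as a block and leaving out each library.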

Additional observations from a re-analysis of the deposited data

How the results depend on the processing

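For the main results, 68 values recomputed under another setting kept their direction and stayed within their tolerance, and 30 did not. SOX17FNV-only, SOX2-only and shared regions numbered 1, 5 and 65 at a −log10 q of at least 5, and 1, 1 and 20 at a −log10 q of at least 10. SOX17FNV-only regions numbered 4 with lists of equal length, 1 within the gene span alone, 5 within 5 kb and 14 within 50 kb. The gene span alone also left 9 SOX2-only and 82 shared regions, and the strongest 50000 peaks of each list left 69 shared regions. Leaving out 1 library gave 15 to 33 SOX17FNV-only and 27 to 59 SOX2-only regions. It moved the median log2 difference of shared regions to between -0.14 and -0.040. With a window of 50 kb, 1 of 215 shared regions passed the test, against a background of 2.12%. It lay more than 20 kb outside Nkx6-3 (chr8:23189099-23189999, log2 difference -0.62, adjusted p = 0.0479 by limma).

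The replicate number as a block gave 2 regions past the test, near Pax2 (adjusted p = 0.0159) and Six5 (adjusted p = 0.0439), of 3674 over all regions. It gave 3 genes, Lhx6 (0.0248), Nkx1-2 (0.0431) and Nkx6-2 (0.00729), of 2341 over all genes. Deviations of same-numbered libraries correlated at 0.23 over regions, over only 2 pairs. The labels do not say that the numbers pair libraries, but peak names carry P20 in replicate 1 and P22 in replicate 2 of both groups, a shared tag whose meaning is not given in the sources used here. Whether it marks pairs was not settled, so both fits are given. With fold enrichment the gene values were -0.0018 for Nkx6-2, -0.034 for Lhx6 and 0.062 for Nkx1-2 (no block), against -0.36, -0.32 and -0.27 with pileup.

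Gene ends open in all 4 libraries numbered 10 where a peak had to overlap the end and 23 at a −log10 q of at least 5. The following alternatives were chosen after seeing the data. Open starts made up 27.9% at a −log10 q of at least 5 and 9.30% at a −log10 q of at least 10, against 48.3% and 36.7% for other genes. CpG-rich open starts made up 9.68% at that threshold of 10, against 63.2%. The merged-region definition gave 60.5% and 61.3%. The cause of these shifts was not tested. With 2 libraries a group and no read counts, weak regions near the calling threshold limit what can be told apart.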
